A study of Mus musculus with 9 samples.

Results

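The genes that make, sense and break down prostaglandins were followed in cardiosphere-derived cells of the mouse heart by RNA sequencing. The list holds 10 of the 54532 genes measured. They are the cyclooxygenases Ptgs1 and Ptgs2, the terminal synthases Ptges and Ptgis, the receptors Ptger1, Ptger2, Ptger3, Ptger4 and Ptgfr, and the degrading enzyme Hpgd. They were chosen by gene symbol, with the read counts and FPKM values of the same 9 libraries already known. The fold changes and adjusted p-values given for them therefore describe these libraries and are not independent evidence about the list.

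Every cell came from C57BL/6 mice, and each group had 3 libraries. pECDCs are untreated primary cells grown from explants of the ventricle epicardium of 6-week-old mice and expanded through cardiospheres. The titles give them passage 0, and the culture methods give passage 3. iECDCs are such cells after lentiviral transduction with hTERT, the catalytic subunit of human telomerase, under a CMV promoter, followed by puromycin selection. They were untreated and at passage 30. They are a selected population from a transduced culture, and nothing says that the 3 libraries came from separate transductions. The SB431542 group is, by its labels, iECDCs at passage 30 exposed to SB431542 for 3 days, a small molecule that blocks the kinase of the type I TGF-β receptor. The methods of the study instead describe an epithelial clone of pECDCs under the inhibitor, so the cell of origin of these libraries is uncertain. The methods call the replicates of a condition biological but count fewer of them than the 3 libraries labelled. A figure legend of the study gives n = 3 for the RNA sequencing of pECDCs and iECDCs. No source names the culture or animal of a library. The p-values therefore measure only the spread between libraries, which may be technical.

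Total counts ranged from 16568306 to 23951392 per library. Of 10 fibroblast and mesenchymal markers, 8 were above 10 FPKM in every library, Vim and Col1a1 highest, while Lum had 0 to 8 counts. Dcn was at 0.39 to 0.903 FPKM in the untreated libraries and at 17.4, 3.43 and 18.7 FPKM in SB431542 replicates 1, 2 and 3. Tbx18, an epicardial transcription factor, was at 18.8 to 41.8 FPKM. The epicardial epithelial gene Wt1 had only 0 to 43 counts. A pair of libraries stood apart from their groups. The counts of library pairs within a group differed by 2.7 to 4.61 in chi-square per degree of freedom in 5 pairs, by 24.9 and 30.8 in the pairs with iECDC replicate 3, and by 70.3 and 71.5 in those with SB431542 replicate 2. iECDC replicate 3 held 1897.9 FPKM of Acta2, the smooth muscle actin, against 811.8 and 847.9 in the other iECDC libraries. SB431542 replicate 2 held 5.27 FPKM of the TGF-β target Pmepa1, against 2.54 and 2.32 in the other treated libraries. Results that rest on either library are given with and without it.

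Prostaglandins are short-lived lipid signals made from arachidonic acid, which phospholipases cut from membranes. The cyclooxygenases turn arachidonic acid into prostaglandin H2, Ptgs1 as the housekeeping form and Ptgs2 as the form induced by growth factors, cytokines and injury. Ptges then makes prostaglandin E2, and Ptgis makes prostacyclin, the vasodilator that also keeps platelets from clumping. Prostaglandin E2 acts through the receptors EP1 to EP4, encoded by Ptger1 to Ptger4. Ptgfr is the receptor of prostaglandin F2α, and Hpgd oxidizes prostaglandins to inactive forms. In the heart, fibroblasts, vessel wall cells and the mesothelium are among the sources of prostacyclin and prostaglandin E2.

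The promoters of the cyclooxygenases are shown because their genes encode enzymes for the same step, while Ptgs2 was called lower in treated cells and Ptgs1 was not. Of the 10 genes, 8 had a promoter in RefSeq on GRCm38.p6. Each line gives 180 bases, from 150 before the annotated start to 30 after it, with Ptgs2 at chr1:150099881-150100060 and Ptgs1 at chr2:36230276-36230455, both on the plus strand. Capitals mark matches to the motifs searched.
Ptgs2: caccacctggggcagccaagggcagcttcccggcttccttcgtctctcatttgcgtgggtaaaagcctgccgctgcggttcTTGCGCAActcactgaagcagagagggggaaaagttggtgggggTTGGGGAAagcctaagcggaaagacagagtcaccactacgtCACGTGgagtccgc
Ptgs1: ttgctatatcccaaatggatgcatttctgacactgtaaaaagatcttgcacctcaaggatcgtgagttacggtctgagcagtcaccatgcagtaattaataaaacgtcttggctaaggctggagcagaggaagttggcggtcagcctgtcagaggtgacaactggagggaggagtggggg
The 6 motifs were searched on both strands, and the share of all 32851 RefSeq promoters of 300 bases that held each is given with it. The cyclic AMP response element was searched as TGACGTCA, held by 1.79%, and the SMAD element as GTCTAGAC, held by 0.213%. AP-1 was searched as TGANTCA, held by 7.81%. The TATA box was searched as TATAAA, held by 13.6%. The E-box was searched as CACGTG, held by 7.15%. C/EBP was searched as TTNNGNAA, held by 40.7%. The Ptgs2 promoter held the C/EBP letters from 69 and from 25 bases before the annotated start, the first of these on both strands. It held the E-box letters from base 17 counted from that annotated start. These matches did not overlap, and whether transcription begins at the annotated start in these cells was not tested. The whole 300-base promoter of Ptgs1 held none of the 6. These matches describe letters only, and absent letters say nothing of the factor.

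Of the list, 5 genes were expressed above 1 FPKM in some group. The unit FPKM is the number of fragments scaled to gene length and library size, so levels can be compared between genes. Prostacyclin synthase stood highest at 210.4 ± 4.08 FPKM in pECDCs (SD, n = 3), followed by Ptgs2 at 98.3 ± 2.1, Ptgs1 at 58.9 ± 2.99, Ptges at 14.2 ± 0.259 and Ptger4 at 4.46 ± 0.394. The ranges of these 5 genes did not overlap in pECDCs, nor in iECDCs, where the order was the same, although Ptgs2 came down to 71.9 FPKM and Ptgs1 reached 69.1. In SB431542-treated cells the order was Ptgis, Ptgs1, Ptges, then Ptgs2 and Ptger4, whose ranges overlapped. The other 5 genes reached at most 0.147 FPKM in any library. Genes enter the tests below only when they pass a filter on low counts, and 5, 5 and 6 of the 10 did so in the comparisons of iECDCs with pECDCs, treated cells with iECDCs and treated cells with pECDCs. Because the RNA comes from bulk cultures, fewer expressing cells and less RNA per cell cannot be told apart.

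**Figure D1:**
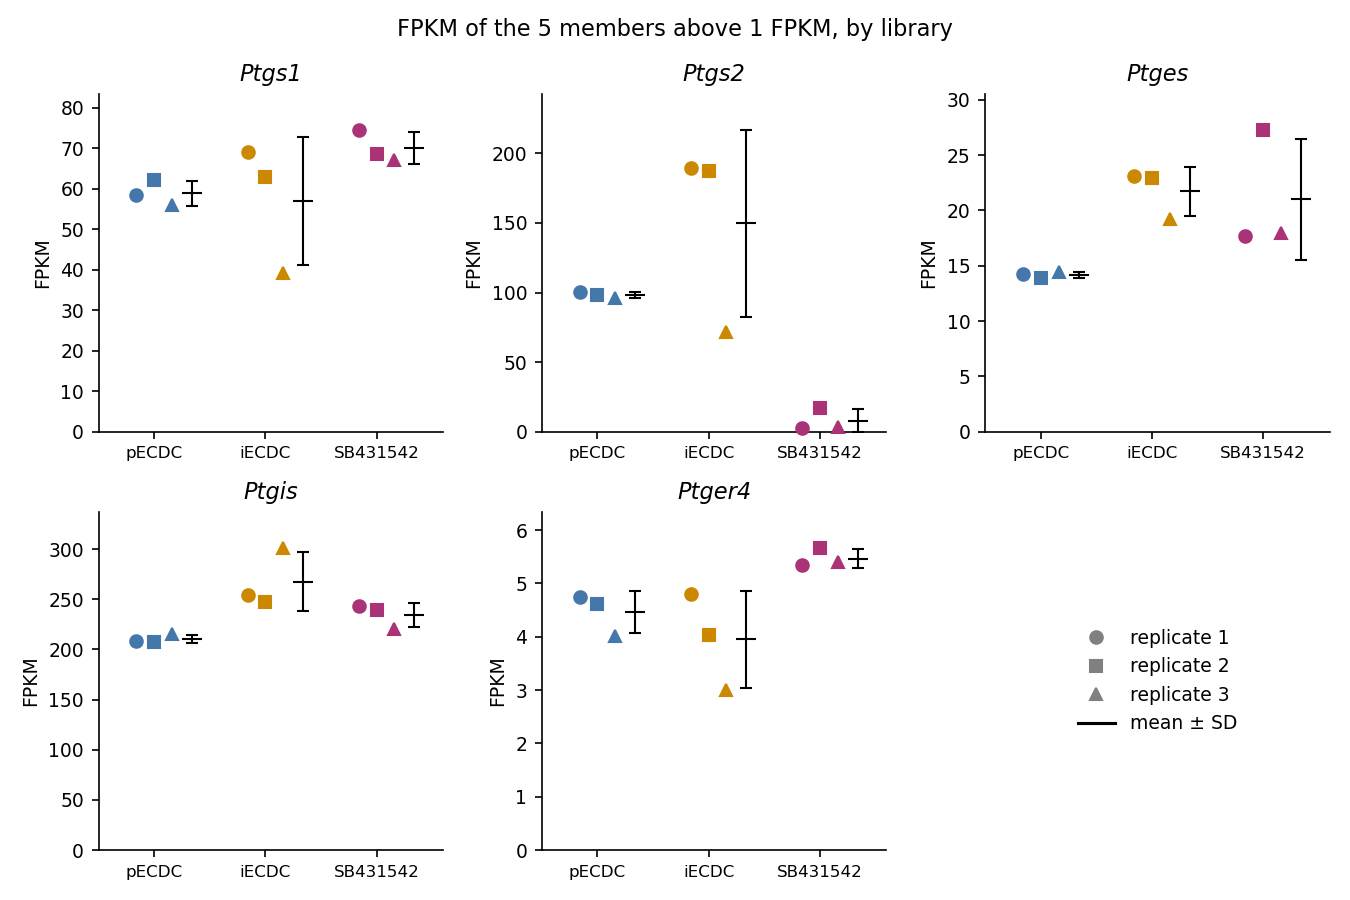
FPKM of Ptgs1, Ptgs2, Ptges, Ptgis and Ptger4 (vertical axes, each from 0) in the 9 libraries by group, with symbols for replicates and bars for the mean ± SD of 3 libraries, cut at 0. Ptgs2 lay at 2.71 to 17.2 FPKM in the 3 treated libraries and at 71.9 to 189.6 FPKM in the 6 others, while the groups of the other 4 genes lay far closer together.

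Ptgs2, the inducible cyclooxygenase (ENSMUSG00000032487, chromosome 1, 150100031 to 150108227, plus strand), showed the widest swing of the list. pECDC replicates 1, 2 and 3 held 100.3, 98.4 and 96.1 FPKM. iECDC replicates held 189.6, 187.4 and 71.9 FPKM, and SB431542-treated replicates held 2.71, 17.2 and 3.37 FPKM. All treated libraries lay below all others, and iECDC replicate 3 lay below the pECDC libraries while its sister libraries lay well above them. Against iECDCs the treated cells were 19.1-fold lower, a log2 difference of -4.26 (SE 0.764, 95% interval -6.01 to -2.51, edgeR adjusted p = 0.00641). Against pECDCs they were 12.6-fold lower, a log2 difference of -3.65 (SE 0.695, edgeR adjusted p = 0.00777). Without SB431542 replicate 2 the log2 differences were -5.61 and -5.00. Without iECDC replicate 3 the difference from iECDCs was -4.60, and with both libraries left out it was -5.94. The call held under every alternative run. Comparing iECDCs with pECDCs, the log2 difference of 0.59 did not pass (SE 0.296, edgeR adjusted p = 0.206). Without iECDC replicate 3 it was 0.93 (edgeR adjusted p = 5.55e-11), so this comparison turned on that library. The treated group enters both of the larger contrasts, which are therefore not separate observations.

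Of the 10 TGF-β target genes listed as a check of the treatment, 7 were lower in treated cells than in iECDCs, with a median log2 difference of -2.35, and 1 was higher. Over all genes tested in that comparison, 14.0% were lower and 16.0% higher. Their summed level was 944.3 to 1023.7 FPKM in treated libraries, 3405.7 to 4998.1 in iECDCs and 2998.2 to 3081.2 in pECDCs. Of the 8 smooth muscle markers, 6 were tested and 4 were lower in treated cells than in iECDCs, with a summed level of 149.6 to 342.9 against 835.8 to 1946.1 FPKM, and 739.6 to 762.5 in pECDCs. Nearly all of the smooth muscle sum was Acta2, at 136.8, 322.5 and 137.2 FPKM in treated replicates, so it says little of the other markers. Acta2 and Tagln are also among the TGF-β targets, so these lists are not separate observations. Of the 10 mesothelial and epicardial epithelial markers, 4 were tested against iECDCs and 2 were higher in treated cells, with a summed level of 64.4 to 66.9 FPKM against 48.1 to 57.1, and 38.5 to 40.8 in pECDCs. Nearly all of the last sum was Tbx18 and Krt19, so it says little of the low markers. Upk3b had means of 0.13 FPKM in pECDCs, 0.12 in iECDCs and 1.28 in treated cells. Wt1 had means of 0.0484, 0.0119 and 0.284 FPKM in the same order. The low markers Upk1b, Lrrn4 and Krt18 were not highest in treated cells. The smooth muscle sum was highest in iECDC replicate 3, which had the least Ptgs2 of the untreated libraries. The part of these genes in the Ptgs2 difference was not tested.

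A noncoding gene upstream of Ptgs2 on the other strand, Ptgs2os (ENSMUSG00000097028, chromosome 1, 150074873 to 150099963), was added after its values were seen. It ends 68 bases before the annotated Ptgs2 start, so the genes share no bases. Its counts were 92, 61 and 85 in pECDC replicates, 160, 129 and 109 in iECDC replicates and 19, 63 and 11 in treated replicates. Treated replicates 1 and 3 were lowest. Treated replicate 2 lay beside pECDC replicate 2, with the higher count of these 2 libraries but 0.692 against 0.708 FPKM. The log2 difference of treated cells from iECDCs was -2.25 (SE 0.464, edgeR adjusted p = 0.0105), or -3.16 without SB431542 replicate 2 (edgeR adjusted p = 2.3e-05). That of iECDCs from pECDCs was 1.11 (SE 0.139, edgeR adjusted p = 0.00101). The difference of treated cells from pECDCs was -1.12 (edgeR adjusted p = 0.115), and without SB431542 replicate 2 it was -2.04 (edgeR adjusted p = 2.39e-06).

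Ptgs1, the constitutive cyclooxygenase (ENSMUSG00000047250, chromosome 2, 36230426 to 36252272, plus strand), held 58.4, 62.1 and 56.1 FPKM in pECDC replicates. It held 69.1, 63.0 and 39.2 FPKM in iECDC replicates and 74.6, 68.5 and 67.2 in treated replicates. The treated libraries lay above the pECDC libraries, and iECDC replicate 3 was the lowest of the 9. Treated cells were 1.20-fold above pECDCs, a log2 difference of 0.26 (SE 0.0787, edgeR adjusted p = 0.0393). That call was lost when any library other than SB431542 replicate 2 was left out (edgeR adjusted p = 0.0631 to 0.163). The difference from iECDCs was 0.31 on the log2 scale (SE 0.201, edgeR adjusted p = 0.276). Between iECDCs and pECDCs it was -0.06 (edgeR adjusted p = 0.859), turning to 0.16 without iECDC replicate 3 (edgeR adjusted p = 0.0261). A gene model still to be tested experimentally lies on the opposite strand inside Ptgs1 with 2 to 18 counts per library, far under the counts of Ptgs1.

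The share of each cyclooxygenase in their summed transcript was read within each library. Ptgs2 made up 63.2%, 61.3% and 63.1% of their summed FPKM in pECDC replicates and 73.3%, 74.8% and 64.7% in iECDC replicates. In treated replicates its share was 3.51%, 20.1% and 4.78%. The sum itself was 157.1 ± 4.37 FPKM in pECDCs, 206.8 ± 82.9 in iECDCs and 77.9 ± 7.62 in treated cells (SD, n = 3). Most cyclooxygenase transcript was Ptgs2 in the untreated cells and Ptgs1 in the treated cells, and SB431542 replicate 2 kept the largest Ptgs2 share of them.

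Ptges, the inducible prostaglandin E synthase (ENSMUSG00000050737, chromosome 2, 30889471 to 30929863, minus strand), rose in iECDCs. pECDC replicates held 14.3, 13.9 and 14.4 FPKM, iECDC replicates 23.1, 22.9 and 19.2, and treated replicates 17.7, 27.3 and 18.0. Both later groups lay above every pECDC library and overlapped each other. iECDCs were 1.51-fold above pECDCs, a log2 difference of 0.60 (SE 0.0821, edgeR adjusted p = 0.00166). Treated cells were 1.48-fold above pECDCs, a log2 difference of 0.57 (SE 0.164, edgeR adjusted p = 0.0339). Without SB431542 replicate 2, the highest of them, it was 0.33 (edgeR adjusted p = 1.41e-05), and the call was lost without any single pECDC library (edgeR adjusted p = 0.107 to 0.115). Treated cells and iECDCs differed by -0.04 (95% interval -0.45 to 0.37, edgeR adjusted p = 0.881). Leaving out iECDC replicate 3 and SB431542 replicate 2 together gave -0.36 (edgeR adjusted p = 7.73e-05).

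Ptgis, prostacyclin synthase (ENSMUSG00000017969, chromosome 2, 167191805 to 167240604, minus strand), was the most abundant transcript of the list in every library. It held 208.6, 207.5 and 215.0 FPKM in pECDC replicates, 254.4, 246.8 and 300.8 in iECDC replicates, and 243.0, 238.8 and 220.3 in treated replicates. The 3 groups did not overlap, with iECDCs highest and pECDCs lowest. iECDCs were 1.26-fold above pECDCs, a log2 difference of 0.33 (SE 0.082, edgeR adjusted p = 0.0253), which did not pass without any single pECDC library (edgeR adjusted p = 0.0863 to 0.116). Treated cells differed from iECDCs by -0.18 (edgeR adjusted p = 0.301). From pECDCs they differed by 0.16 (edgeR adjusted p = 0.13), and by 0.15 without SB431542 replicate 2 (edgeR adjusted p = 0.00976). Ptgis exceeded Ptges by 8.75-fold to 15.7-fold in FPKM within the libraries.

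**Figure D2:**
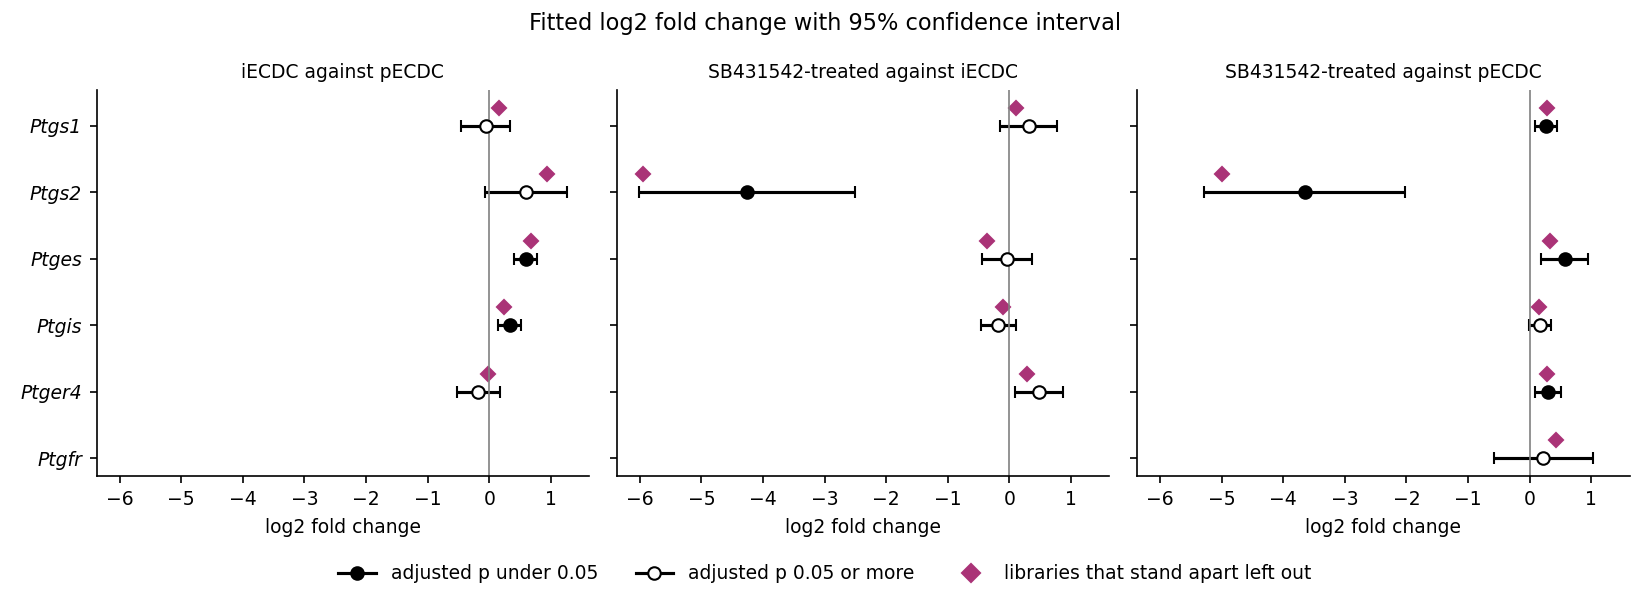
Fitted log2 fold changes (horizontal axis) of the tested genes in 3 comparisons, with 95% confidence intervals from edgeR, filled where the adjusted p was under 0.05. Diamonds show the fit without iECDC replicate 3 (left), without it and SB431542 replicate 2 (middle) and without SB431542 replicate 2 (right), and Ptgs2 in treated cells had the only fitted values beyond 1 in size.

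Ptger4, encoding the EP4 receptor that raises cyclic AMP (ENSMUSG00000039942, chromosome 15, 5206661 to 5244187, minus strand), was the only receptor of the list above 1 FPKM. It held 4.75, 4.62 and 4.01 FPKM in pECDC replicates, 4.81, 4.04 and 3.00 in iECDC replicates, and 5.34, 5.66 and 5.40 in treated replicates. The treated libraries lay above all others, while pECDCs and iECDCs overlapped. Treated cells were 1.23-fold above pECDCs, a log2 difference of 0.30 (SE 0.0887, edgeR adjusted p = 0.0357). This call was lost when any library other than SB431542 replicate 2 was left out (edgeR adjusted p = 0.074 to 0.135). Against iECDCs the log2 difference was 0.48 (SE 0.169, edgeR adjusted p = 0.0637), and it passed at 0.64 without iECDC replicate 1 (edgeR adjusted p = 0.0493) and at 0.28 with both libraries that stood apart left out (edgeR adjusted p = 0.0078). With every library kept it passed at 0.47 with no filter (edgeR adjusted p = 0.0276) and at 0.47 with all 9 libraries in the fit (edgeR adjusted p = 0.0294). iECDCs and pECDCs differed by -0.18 (edgeR adjusted p = 0.452). Ptger4 made up 93.5% to 99.1% of the summed FPKM of the 5 receptors. It overlaps the gene Ttc33, which had 198 to 434 counts, on the opposite strand. Whether counting used the strand is not given in the sources used here.

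The remaining receptors were near the limit of detection. Summed counts were therefore compared per total count, with exact 95% intervals that cover counting error only. A library with 3 counts or fewer was taken to be at the floor. Fits with no filter are given for genes that the planned filter largely left out. For Ptgs2 in iECDCs against pECDCs, dropping the filter changed the SE from 0.296 to 0.104. The p-values with no filter are therefore description, and no support for a difference in these genes.

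Ptgfr, the prostaglandin F2α receptor (ENSMUSG00000028036, chromosome 3), had 18, 9 and 19 counts in pECDC replicates, 2, 4 and 1 in iECDC replicates, and 14, 12 and 18 in treated replicates. The iECDC libraries lay below all others. The iECDC rate was lower than that of pECDCs by a factor of 5.3 (interval 2.38 to 13.9), and the treated rate was 6.1 times that of iECDCs (interval 2.73 to 16.1). Treated cells and pECDCs differed by 0.22 on the log2 scale (SE 0.341, edgeR adjusted p = 0.638). With no filter on low counts, the edgeR adjusted p-values were 0.0022 for iECDCs against pECDCs and 0.00303 for treated cells against iECDCs.

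Ptger2, the EP2 receptor (ENSMUSG00000037759, chromosome 14), had 7, 8 and 7 counts in pECDC replicates, 0, 1 and 0 in iECDC replicates, and 1, 1 and 0 in treated replicates. It was above the floor only in pECDCs. The pECDC rate was 17.7 times that of iECDCs (interval 2.87 to 732.3) and 9.14 times that of treated cells (interval 2.25 to 80.2). With no filter the edgeR adjusted p-values were 0.00865 and 0.0201.

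Ptger3, the EP3 receptor that lowers cyclic AMP (ENSMUSG00000040016, chromosome 3), had 2, 7 and 3 counts in pECDC replicates, 0, 1 and 2 in iECDC replicates, and 9, 8 and 13 in treated replicates. The treated libraries lay above all others. Their rate was 9.71 times that of iECDCs (interval 3.02 to 49.7) and 3.01 times that of pECDCs (interval 1.5 to 6.45). With no filter the edgeR adjusted p-values were 0.0053 and 0.0852, so the contrast with pECDCs did not pass.

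Ptger1, the EP1 receptor (ENSMUSG00000019464, chromosome 8), had 8, 5 and 3 counts in pECDC replicates, 3 in each iECDC replicate, and 8, 8 and 10 in treated replicates. No contrast passed with no filter (edgeR adjusted p = 0.165 to 0.755). These few reads are uncertain, since whether counting used the strand is not given, and no ratio is drawn from them.

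Hpgd, 15-hydroxyprostaglandin dehydrogenase, the main enzyme of prostaglandin breakdown (ENSMUSG00000031613, chromosome 8), had 0 counts in each of the 9 libraries. A count of 0 allows up to 3, which corresponds to 0.0727 to 0.116 FPKM at these depths. No fold can be given for it.

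**Figure D3:**
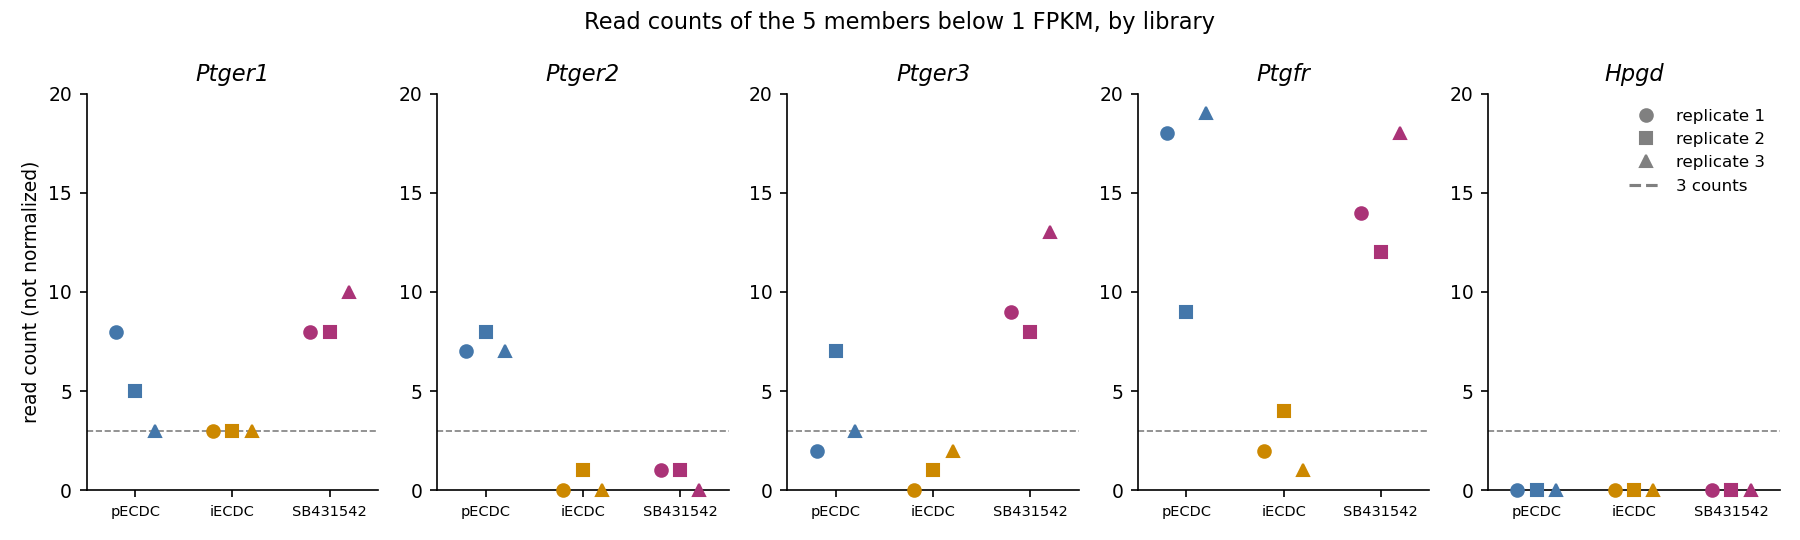
Raw read counts (vertical axis, 0 to 20) of Ptger1, Ptger2, Ptger3, Ptgfr and Hpgd in the 9 libraries by group, with the floor of 3 counts dashed. Ptger2 was above the floor only in pECDCs, Ptgfr was lowest in iECDCs, and Hpgd was at 0 throughout.

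Counting the calls at an adjusted p under 0.05, 2 of the 5 tested members were higher in iECDCs than in pECDCs (Ptges and Ptgis) and none was lower. Over all 13752 genes tested, 7.21% were higher and 9.21% lower. In treated cells against iECDCs, 1 of 5 was lower (Ptgs2) and none higher, where 14.0% of 13559 genes were lower and 16.0% higher. Against pECDCs, 3 of 6 were higher (Ptgs1, Ptges and Ptger4) and 1 lower (Ptgs2), where 17.9% of 14015 genes were higher and 17.0% lower. Since the members were picked with these contrasts known, nothing is read from the shares. The median log2 difference of the tested members was 0.33, -0.04 and 0.24 in the 3 comparisons, where that of all genes tested was 0.00, 0.00 and 0.01.

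The rest of prostanoid and leukotriene metabolism was taken from 43 further genes listed by function. In iECDCs against pECDCs, 3 of 20 tested genes were higher and 2 lower, with a median log2 difference of 0.12. Over all genes tested, 7.21% were higher and 9.21% lower. In treated cells against iECDCs, 3 of 21 were higher and 4 lower, with a median of 0.03, beside 16.0% and 14.0% of all genes. In treated cells against pECDCs, 4 of 22 were higher and 4 lower, with a median of -0.05, beside 17.9% and 17.0% of all genes. Nothing about the list is read from these counts. The genes called were 3 of arachidonic acid release, 4 other synthases, 1 receptor and 3 of transport and breakdown.

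At the release step, Pla2g4a, the cytosolic phospholipase A2 that supplies the cyclooxygenases, was lower in treated cells. It held 34.5 to 35.1 FPKM in pECDCs, 43.4, 44.3 and 28.1 in iECDC replicates, and 11.1, 16.0 and 10.8 in treated replicates. All treated libraries lay below all others. The log2 difference was -1.60 from iECDCs (SE 0.22, edgeR adjusted p = 0.00238) and -1.45 from pECDCs (SE 0.148, edgeR adjusted p = 0.000917), and these calls held under every alternative run. Against pECDCs, iECDCs differed by 0.14 (edgeR adjusted p = 0.569), and by 0.32 without iECDC replicate 3 (edgeR adjusted p = 1.18e-05). Pla2g4a had the highest FPKM of its list and lies on chromosome 1, 138.7 kb from Ptgs2, with 3 gene models between them, among them Ptgs2os.

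Pla2g6, the calcium-independent phospholipase, was higher by 0.75 in treated cells than in pECDCs (edgeR adjusted p = 0.00295). Its log2 differences of 0.43 from iECDCs and of 0.32 between iECDCs and pECDCs passed at edgeR adjusted p = 0.0401 and 0.0416. These last calls failed without any single library other than SB431542 replicate 2 in the former (edgeR adjusted p = 0.0804 to 0.148) and iECDC replicate 3 in the latter (edgeR adjusted p = 0.0871 to 0.165). Dagla, a lipase that makes 2-arachidonoylglycerol, was lower in iECDCs than in pECDCs by 0.35 on the log2 scale (log2 difference -0.35, edgeR adjusted p = 0.0324). That call was lost without iECDC replicate 2 or any pECDC library (edgeR adjusted p = 0.0649 to 0.152).

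Among the other synthases, Ptges3, the cytosolic prostaglandin E synthase that is also the Hsp90 co-chaperone p23, had the highest FPKM, 75.2 ± 2.62 in pECDCs (SD, n = 3). It was lower in treated cells, at 49.0, 65.9 and 49.5 FPKM, with log2 differences of -0.52 from iECDCs (edgeR adjusted p = 0.0283) and -0.45 from pECDCs (edgeR adjusted p = 0.0261). The first call was lost without SB431542 replicate 1 or 3 or iECDC replicate 1 or 2 (edgeR adjusted p = 0.0872 to 0.12), and the second without any library but SB431542 replicate 2 (edgeR adjusted p = 0.0751 to 0.0976). Akr1b3, an aldose reductase that can make prostaglandin F2α, was higher in iECDCs than in pECDCs by 0.43 (SE 0.0737, edgeR adjusted p = 0.00514). In treated cells it was lower than in iECDCs, with a log2 difference of -0.63 (edgeR adjusted p = 0.035) that was lost without any library but SB431542 replicate 2 (edgeR adjusted p = 0.0846 to 0.131). From pECDCs it differed by -0.19 (edgeR adjusted p = 0.412), and by -0.45 without SB431542 replicate 2 (edgeR adjusted p = 8.5e-08). Prxl2b, listed in the table under an older symbol, is a prostaglandin F2α synthase, and it was higher in treated cells than in pECDCs by 0.41 (edgeR adjusted p = 0.0392), lost without any library but SB431542 replicate 2 (edgeR adjusted p = 0.0556 to 0.141). Without iECDC replicate 3 it passed in iECDCs against pECDCs at 0.26 (edgeR adjusted p = 0.0363).

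In transport, Slco2a1, the carrier that takes prostaglandins into cells, was higher in treated cells. It held 11.3 to 11.5 FPKM in pECDCs, 11.5, 12.3 and 16.4 in iECDC replicates, and 33.3, 31.8 and 29.3 in treated replicates. The treated libraries lay above all others, SB431542 replicate 2 among them. The treated cells were 2.37-fold above iECDCs (log2 difference 1.25, SE 0.153, edgeR adjusted p = 0.00166) and 2.78-fold above pECDCs (log2 difference 1.48, SE 0.0763, edgeR adjusted p = 8.02e-05), and these calls held under every alternative run.

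Abcc4, an exporter of prostaglandin E2, held 25.8, 28.8 and 22.8 FPKM in iECDC replicates against 17.9 to 18.5 in pECDCs, a log2 difference of 0.49 (edgeR adjusted p = 0.0052). Treated replicates held 7.84, 23.2 and 7.91 FPKM, so replicate 2 lay with the iECDCs. The log2 difference of treated cells was -0.98 from iECDCs (edgeR adjusted p = 0.0903) and -0.48 from pECDCs (edgeR adjusted p = 0.386). Without SB431542 replicate 2 these were -1.70 (edgeR adjusted p = 7.09e-06) and -1.20 (edgeR adjusted p = 1.65e-13).

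Of the reductases that carry breakdown further, Ptgr3, listed under another symbol in the table, was higher in treated cells than in iECDCs by 0.51 (edgeR adjusted p = 0.0144) and than in pECDCs by 0.33 (edgeR adjusted p = 0.0291). The first call was lost without iECDC replicate 1 or 2 (edgeR adjusted p = 0.0679 and 0.076), and the second without any pECDC library (edgeR adjusted p = 0.097 to 0.116). Between iECDCs and pECDCs its difference of -0.19 (edgeR adjusted p = 0.0748) became -0.23 without iECDC replicate 3 (edgeR adjusted p = 0.00203). Ptgr1, at 34.9 ± 1.26 FPKM in pECDCs (SD, n = 3), had the highest level of this list there and passed in no comparison.

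**Figure D4:**
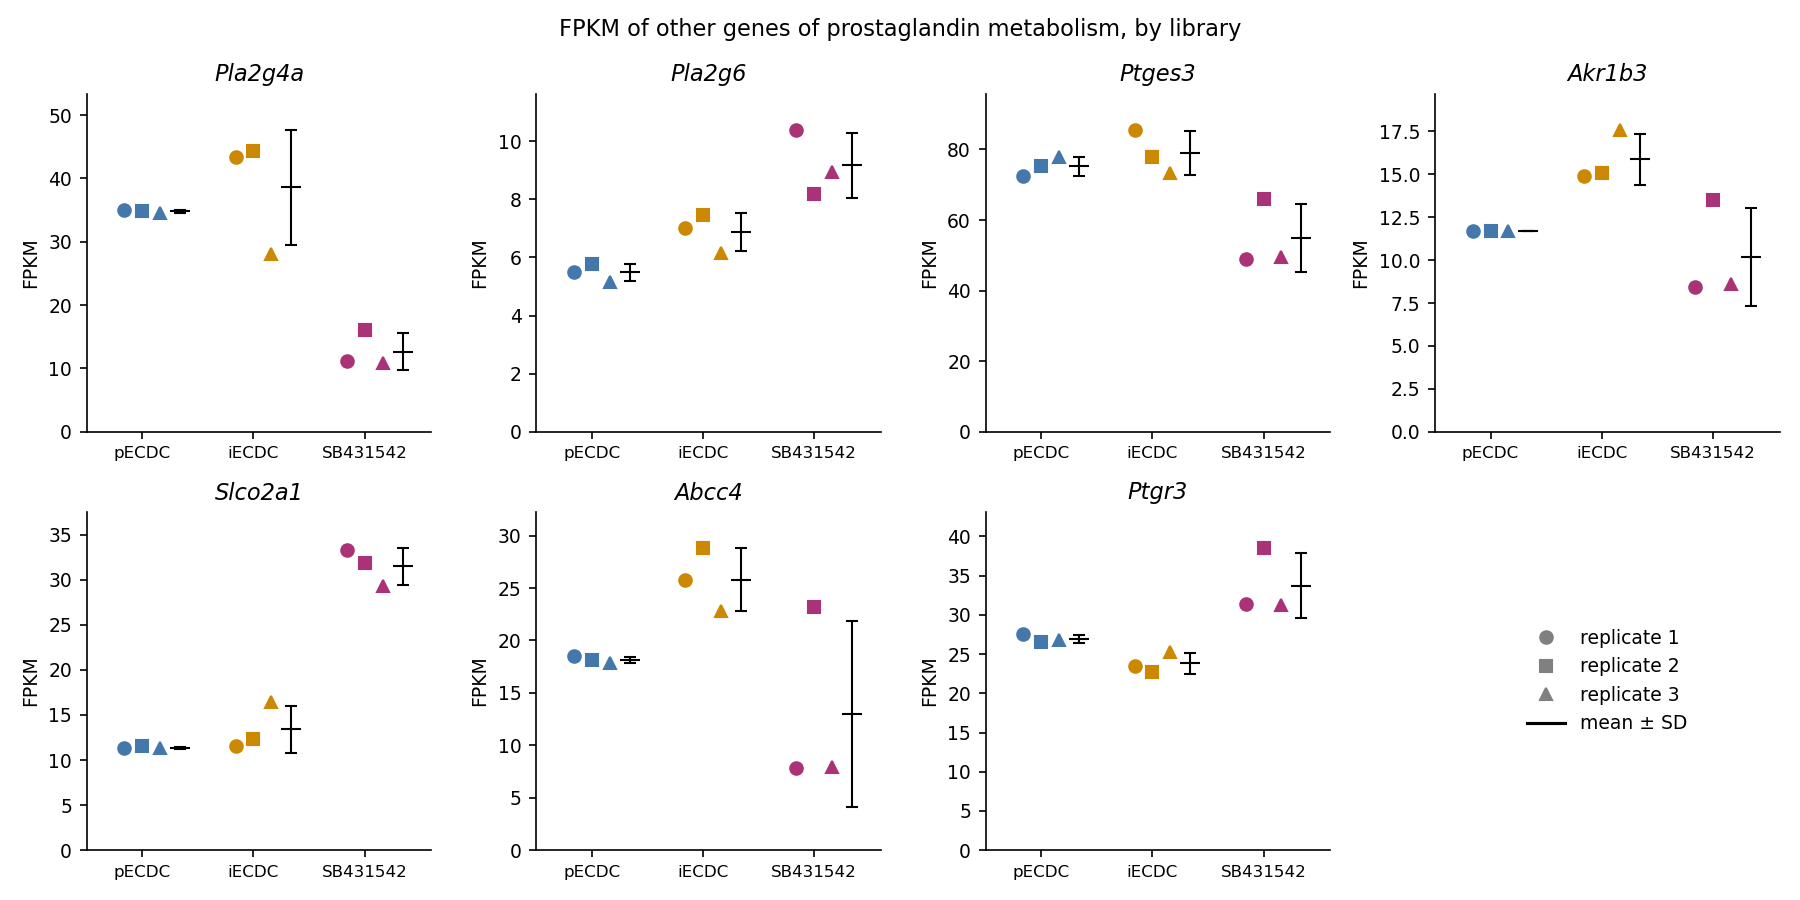
FPKM of 7 other genes of arachidonic acid release, prostaglandin synthesis, transport and breakdown (vertical axes, each from 0) in the 9 libraries by group, with bars for the mean ± SD of 3 libraries. Pla2g4a was lower and Slco2a1 higher in all 3 treated libraries than in the 6 others, and SB431542 replicate 2 stood apart in Abcc4 at 23.2 FPKM.

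The receptors for prostacyclin, prostaglandin D2 and thromboxane were all under 1 FPKM. Ptgir, the prostacyclin receptor, had summed counts of 31, 21 and 39 over the 3 libraries of pECDCs, iECDCs and treated cells, far under the level of prostacyclin synthase. Ptgdr had 0 counts in all 9 libraries. Tbxa2r, the thromboxane receptor, had 32, 24 and 38 counts in pECDC replicates, 7, 9 and 3 in iECDC replicates and 5, 4 and 13 in treated replicates. The pECDC rate was 3.99 times that of iECDCs (interval 2.42 to 6.92) and 3.55 times that of treated cells (interval 2.21 to 5.93). Tbxas1, thromboxane synthase, had 26, 30 and 20 counts in pECDC replicates, 22, 22 and 26 in iECDC replicates and 1, 4 and 3 in treated replicates, which is near the floor. The rate of treated cells was lower than that of iECDCs by a factor of 9.02 (interval 4.33 to 21.7) and lower than that of pECDCs by a factor of 7.89 (interval 3.81 to 18.9). These intervals cover counting error only. Both genes passed the filter on low counts only through the groups where they were high, so their edgeR calls, which are among the pathway counts given above, are no support for a difference, and no fitted fold is given. The Tbxa2r call between treated cells and pECDCs was also lost without SB431542 replicate 1 or any pECDC library (edgeR adjusted p = 0.0559 to 0.0802). These low genes were named after their values were seen.

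The leukotriene branch was hardly expressed. Of 13 lipoxygenase and leukotriene genes only Lta4h, leukotriene A4 hydrolase, passed the filter, at 9.95 to 11.9 FPKM, and it was called in no comparison. In this list 7 genes had at most 3 counts in every library, and 3 of them had 0 throughout.

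For the 3 members with the widest range of group means, the genes with the closest pattern were sought among 11537 genes with a mean of at least 1 FPKM. Likeness was the Euclidean distance between log2(FPKM + 1) values centred on the mean of the 9 libraries, so it is a description over libraries that share their depth and treatment. For Ptgs2, Pmepa1, an inhibitor of TGF-β signalling that the pathway itself induces, was among the 2 closest (distance 1.7). Pmepa1 held 57.5 to 70.5 FPKM in the 6 untreated libraries and 2.54, 5.27 and 2.32 in treated replicates. It differed from Ptgs2 in iECDC replicate 3, which had the most Pmepa1 of all libraries but the least Ptgs2 of the untreated ones. For Ptges the closest were Krt19 (0.207) and Mapk13 (0.24), and for Ptger4 they were Alkbh7 (0.177) and Rcor2 (0.231). Krt19, like Ptges, was lowest in the pECDC libraries, at 18.2 to 19.5 FPKM, and highest in SB431542 replicate 2, at 37.9 FPKM.

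**Figure D5:**
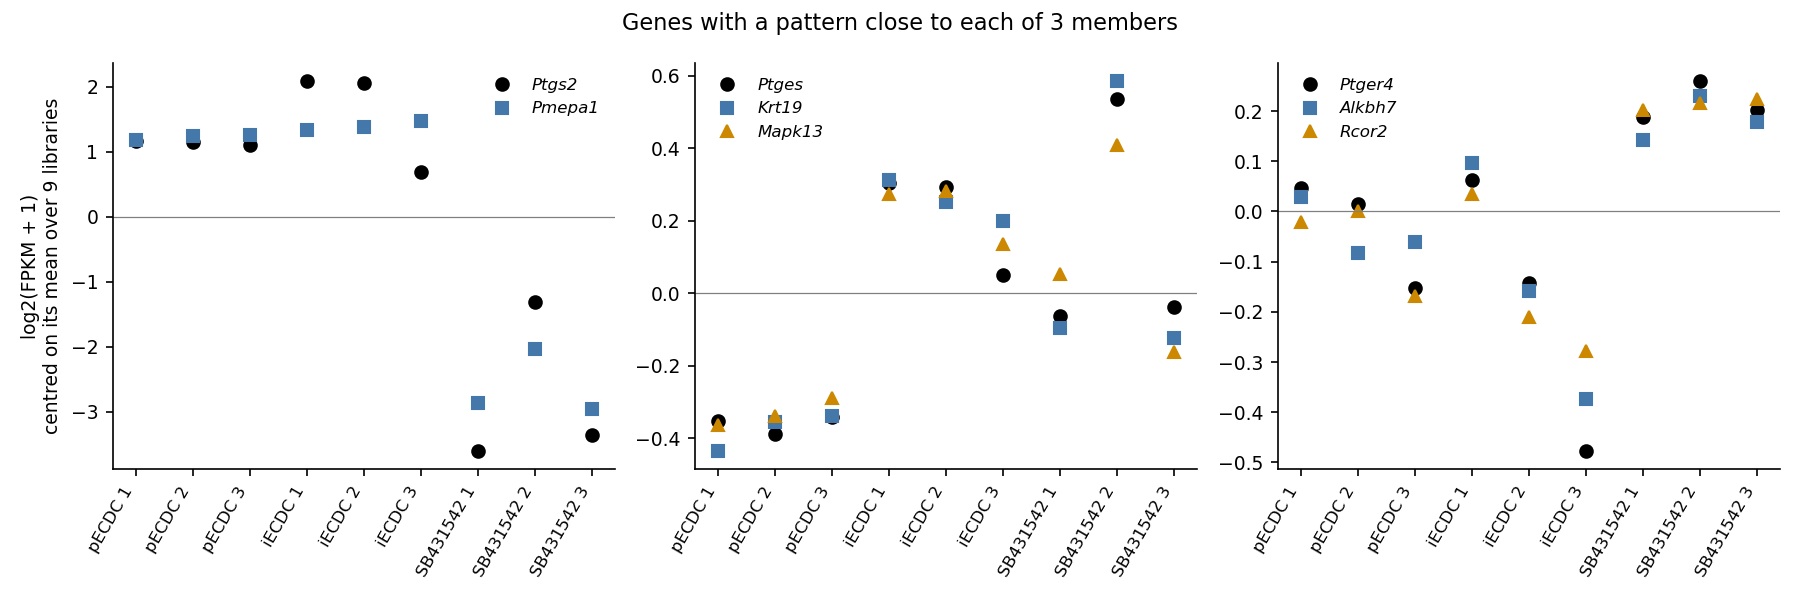
Centred log2(FPKM + 1) (vertical axis) of Ptgs2, Ptges and Ptger4 and of genes close to each in the 9 libraries. Ptgs2 and Pmepa1 parted in iECDC replicate 3, and Ptges and Krt19 were both highest in SB431542 replicate 2.

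Cells of blood and vessels are also sources of prostaglandins, so their markers were read in the same libraries. Of 10 haematopoietic markers, Adgre1, Fcgr1 and Tyrobp had 0 counts in all 9 libraries and Ptprc had 0 to 4 counts. The summed level was 11.9 to 13.4 FPKM in pECDCs, 11.2 to 16.1 in iECDCs and 16.0 to 17.7 in treated cells, most of it from Csf1r and Cd14. Of 10 endothelial markers, Tie1 and Cldn5 had 0 counts throughout and Pecam1 had 0 to 3. Their summed level was 1.18 to 1.73 FPKM over the 9 libraries, most of it from Egfl7. Of 10 cardiomyocyte markers, Pln had 0 counts throughout and the summed level was 0.329 to 2.3 FPKM, most of it from Tnnt2 and Tnni3. Tnnt2 was not absent, with means of 0.55 FPKM in pECDCs, 1.41 in iECDCs and 0.169 in treated cells. The part of these cell types in the differences given above was not tested.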

How the data were processed

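RNA of 9 libraries, 3 each of pECDCs, iECDCs and SB431542-treated cells, was measured, with groups and replicate numbers taken from the labels. The deposited table holds raw counts for each gene, as made by the authors, and deposited FPKM values in which each count is scaled by the length of its gene and by 1 factor a library. The submitters' processing notes name Bowtie2 2.0.6, TopHat2 2.0.9 and mm9, whereas the deposited coordinates of all 10 members are those of GENCODE M21 on GRCm38. The library kit is TruSeq in the labels, while the methods name NEBNext or an oligo(dT) protocol. The counting program and strand setting are not given in the sources used here. The fold changes, p-values and group means of the authors' own comparisons were not used.

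The main test was edgeR 4.0.16 under R 4.3.3 (TMM, filterByExpr with a minimum count of 10 and a minimum total of 15, quasi-likelihood test, Benjamini-Hochberg adjustment over all genes tested, a call at adjusted p under 0.05) with only the compared groups in the fit. The SE is the log2 difference divided by the root of F. The members and lists were chosen with earlier results of these data known. Beside the members, the text names pathway genes that were called and reached a mean of 1 FPKM in a group, the most abundant gene of a list, the 2 genes closest to each of the 3 members with the widest range, and markers at 0 or needed beside a result. Alternatives were DESeq2 1.42.0, RLE and upper-quartile scaling, no filter, 10 counts in every library, all 9 libraries, the replicate number as a block, a minimum log2 fold change of 1, limma 3.58.1 on log2 of FPKM plus 1 or 0.1, each library left out, TMM-scaled CPM in place of FPKM, and other FPKM thresholds. Leaving out the pair of libraries that stood apart was added after seeing the data. Tests were first run on simulated data. Rates of low genes were compared with exact Clopper-Pearson intervals (scipy 1.17.1). Depth was 16568306 to 23951392 counts per library, and a floor of 3 counts was used. Intervals and floors cover counting error only. Some items that these rules would name are not reported here.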

Additional observations from a re-analysis of the deposited data

How the results depend on the processing

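The fall of Ptgs2 and Pla2g4a and the rise of Slco2a1 in treated cells kept their direction and stayed past the threshold under every alternative run. For Ptgs2 the log2 difference from iECDCs ranged from -5.94 to -3.85 and that from pECDCs from -5.00 to -3.25. Counts of called genes moved more. The counts over all genes under each alternative are not given here, so nothing about the lists is read from these changes. Members called in iECDCs against pECDCs (2) became 5 with no filter, 1 with all 9 libraries in the fit and 0 at a log2 fold change of at least 1, and 1 to 5 when a library was left out, with 5 without iECDC replicate 3. The 5 with no filter include Ptger2 and Ptgfr. With all 9 libraries no member tested in the main fit passed. Without iECDC replicate 3 all members tested in the main fit passed except Ptger4 (edgeR adjusted p = 0.915). The remaining calls were of receptors near the floor, and they are no support for a difference. Other pathway genes called in iECDCs against pECDCs (5) became 1 with all 9 libraries, 2 with limma at either pseudocount and 1 at a log2 fold change of at least 1, and 3 to 10 when a library was left out, with 10 without iECDC replicate 3. Tbxa2r was the 1 with all 9 libraries (edgeR adjusted p = 0.0398) and the 1 at that fold change, and its calls are no support for a difference. Members called in treated cells against iECDCs (1) became 3 with DESeq2, 4 with no filter, 3 with all 9 libraries and 4 with iECDC replicate 3 and SB431542 replicate 2 both left out, and 1 to 2 with a library left out. Of the members tested in the main fit, only Ptgs2 passed with DESeq2. Ptgs2 and Ptger4 passed with no filter and with all 9 libraries, and Ptges joined them with both libraries left out. The remaining calls were of receptors near the floor, and they are no support for a difference. Other pathway genes called in treated cells against iECDCs (7) became 3 at a log2 fold change of at least 1, Tbxas1 among them, and 12 with both libraries left out, and 3 to 10 with a library left out. Members called in treated cells against pECDCs (4) became 2 with all 9 libraries and 1 at a log2 fold change of at least 1, and 1 to 6 with a library left out. The 6 were called without SB431542 replicate 2 and include a receptor near the floor, which is no support for a difference. Other pathway genes called in treated cells against pECDCs (8) became 4 at a log2 fold change of at least 1, Tbxas1 and Tbxa2r among them, and 4 to 12 with a library left out. The cause was not tested, except that a fold threshold calls fewer genes by construction and a fit with a library left out has fewer samples. Directions turned for Ptgs1 in iECDCs against pECDCs (0.16 without iECDC replicate 3, range -0.22 to 0.16 with a library left out), for Ptges in treated cells against iECDCs (0.07 without SB431542 replicate 1 or 3, 0.00 without iECDC replicate 1, range -0.28 to 0.07) and for Ptges3 in iECDCs against pECDCs (0.00 without iECDC replicate 1, range 0.00 to 0.11). With all 9 libraries in the fit, the calls of Ptges (edgeR adjusted p = 0.0624) and Ptgis (edgeR adjusted p = 0.0872) in iECDCs against pECDCs were lost, and so were those of Ptgs1 (0.295) and Ptger4 (0.159) in treated cells against pECDCs. The last pair was also lost with no filter (0.0961 and 0.0804), while Ptgs2 passed there in iECDCs against pECDCs (3.57e-06). limma gave 0.0556 and 0.0544 for Ptges in treated cells against pECDCs.

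Same-numbered libraries did not deviate together (correlations of -0.24 to 0.0374 over the tested genes), so the numbers were not read as pairs. With the replicate block, 2 members were called in treated cells against pECDCs in place of 4, without Ptgs1 and Ptger4, and the member calls of the other comparisons did not change. Depth limits the receptors Ptger1, Ptger2, Ptger3 and Ptgfr, whose counts of 0 to 19 leave wide intervals, and Hpgd, where up to 0.116 FPKM could go unseen.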
